A study of Mus musculus with 6 samples.

Results

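Clp1 and 8 genes of tRNA splicing and pre-mRNA 3' cleavage were followed in crypt epithelial cells of the mouse small intestine. The 9 genes are Clp1, Pcf11, Tsen15, Tsen34, Tsen54, Rtcb, Cpsf1, Cpsf3 and Cstf2, found by their symbols among the 28564 Ensembl genes of a deposited table of read counts. Clp1 was chosen by its adjusted p in this same comparison, as a gene called higher in Apln-/- cells, and the others for their work beside it, with the results known. The differences of the 9 genes between genotypes are therefore a description and support nothing. All 9 passed the filter on low counts that left 15122 genes.

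The samples were 3 of Apln-/- mice and 3 of wild-type control mice (C57Bl/6), all male and 13 weeks old, which the labels call biological replicates. Apln encodes the secreted peptide apelin, and the question put to these samples is how crypt cells differ without it. In both groups the cells had been sorted as live single cells with the epithelial protein EpCAM and the crypt protein CD44, and without CD31 (endothelium) or CD45 (blood cells). The part of Apln that is deleted, the background strain of the Apln-/- mice and whether the mice were littermates are unknown from the sources at hand.

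Most transcripts of protein-coding genes end where the pre-mRNA is cut and a poly(A) tail is added. Cleavage and polyadenylation specificity factor (CPSF) and cleavage stimulation factor (CstF) read the signals around the cut, and cleavage factor II, made of the CLP1 and PCF11 proteins, is needed for it. CLP1 is also an RNA kinase that binds the tRNA splicing endonuclease (TSEN), which cuts introns out of precursor tRNAs, after which the ligase RTCB joins the exons. The crypt is the dividing part of the gut lining.

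The libraries held 23046880 to 26513481 counts, of which the 5 most abundant entries, led by mitochondrial ribosomal RNA, took 77.3% to 78.9% in Apln-/- libraries and 70.7% to 75.3% in wild-type libraries. What remained was 5144725 to 5623112 counts in an Apln-/- library and 6037237 to 7616648 in a wild-type library. Apln itself had 0 counts in each Apln-/- library, against 29, 7 and 5 in wild-type libraries 1, 2 and 3. Epcam and Cd44, the genes of the positive sort markers, had unadjusted p-values of 0.625 and 0.482 in the edgeR test of genotype. Fold changes followed transcript length: with genes cut into 8 bins of transcript length, the bin of shortest transcripts had a median log2 fold change of 0.26 and the bin of longest ones -0.19. Pairs of Apln-/- libraries were closer (Pearson's r over genes, 0.955 to 0.964 on the log2 CPM scale) than pairs of wild-type libraries (0.910 to 0.922). The 9 pairs between genotypes had r of 0.915 to 0.941, a range that reached above that of the wild-type pairs.

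Clp1, the RNA kinase gene, was 2.87-fold higher in Apln-/- crypt cells, the largest difference of the 9 genes. The other differences lay between 1.52-fold higher, for the endonuclease subunit gene Tsen15, and 1.25-fold lower, for Cpsf3, the gene of the nuclease that makes the 3' cut. Clp1 was the single gene of the 9 that passed the quasi-likelihood test of edgeR at an adjusted p under 0.05 (Benjamini-Hochberg, over all genes), and it was chosen by that value. Of all 15122 genes, 0.172% passed, 0.112% as higher and 0.0595% as lower.

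Clp1 (ENSMUSG00000027079) lies on chromosome 2 of mm10, from 84722104 to 84727350 on the minus strand, and has 4 exons when those of its transcripts are merged. It had 192, 204 and 141 counts in Apln-/- libraries 1, 2 and 3, against 72, 72 and 107 counts in wild-type libraries 1, 2 and 3. Although the Apln-/- libraries were the shallower ones outside the 5 top entries, each of them held more Clp1 reads than any wild-type library. Scaled by the trimmed mean of M-values (TMM), its level was 9.0, 9.41 and 6.66 CPM (counts scaled to the same library total) in Apln-/- libraries 1, 2 and 3, against 2.86, 2.48 and 3.37 CPM in wild-type libraries 1, 2 and 3. The groups did not overlap, and the lowest Apln-/- library, number 3, was above the highest wild-type library, also number 3. Clp1 averaged 8.36 ± 1.48 CPM in Apln-/- cells and 2.90 ± 0.449 CPM in wild-type cells (SD, n = 3 each). The log2 fold change was 1.52 ± 0.26 (SE), with an edgeR p of 6.48e-05 unadjusted and 0.0460 adjusted, the values that put it among the genes called. By unadjusted p it ranked 18 among all genes tested.

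**Figure D1:**
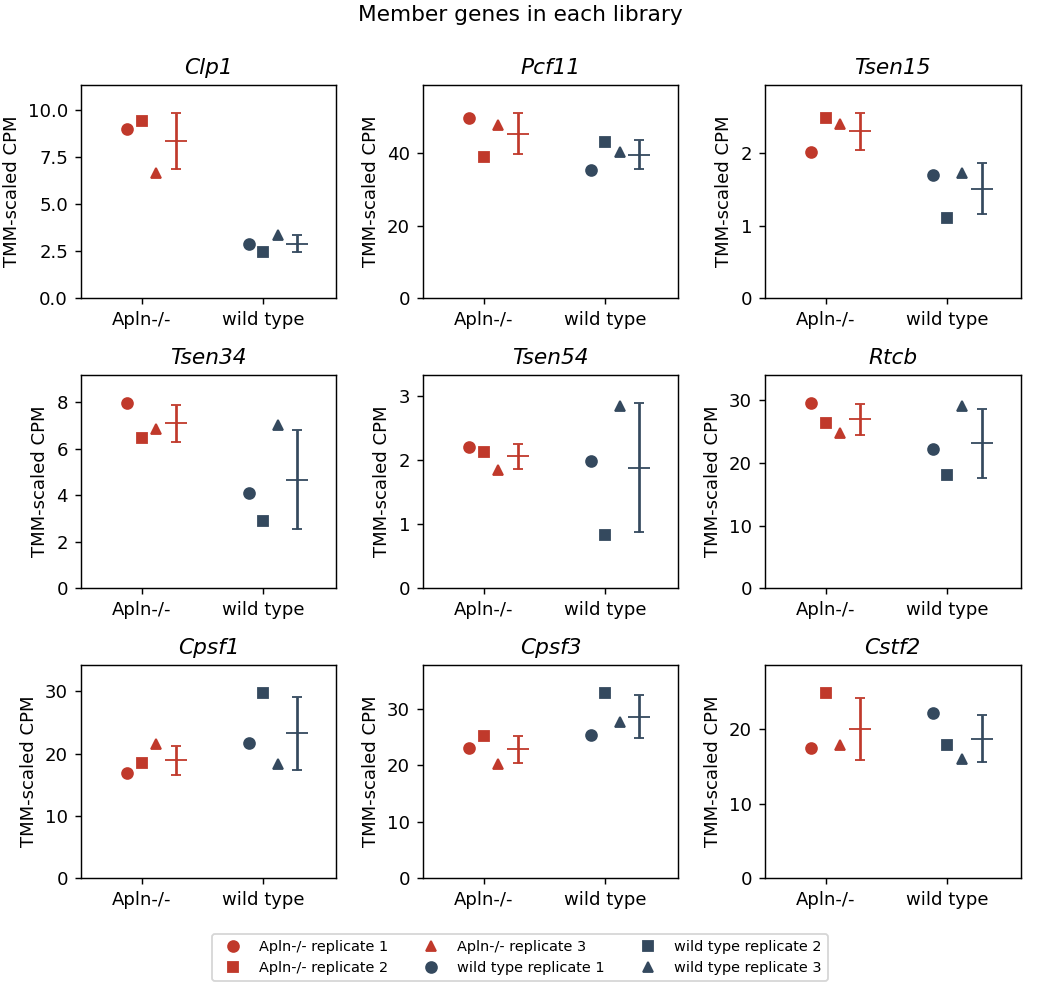
TMM-scaled CPM of each of the 9 genes (vertical axes, from 0) in the 3 Apln-/- and the 3 wild-type libraries, with marker shapes for replicate numbers and, to the right of each group, the mean ± SD. Clp1 is between 6.66 and 9.41 CPM in Apln-/- libraries and between 2.48 and 3.37 CPM in wild-type libraries, while most other genes overlap between the groups.

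The call of Clp1 depended on the processing, and the size of its difference moved little. The log2 fold change was 1.41 ± 0.26 (adjusted p = 0.0965, edgeR) after each library was corrected for transcript length and GC content, and with the other scalings the adjusted p in edgeR was 0.0515 and 0.0531. With 1 library left out at a time the log2 fold change stayed between 1.41 and 1.67. Its edgeR adjusted p was 0.0186 without wild-type library 3 and 0.121 to 0.331 without any other single library. The DESeq2 Wald test gave an adjusted p of 7.35e-05 and limma-voom 0.0419.

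**Figure D2:**
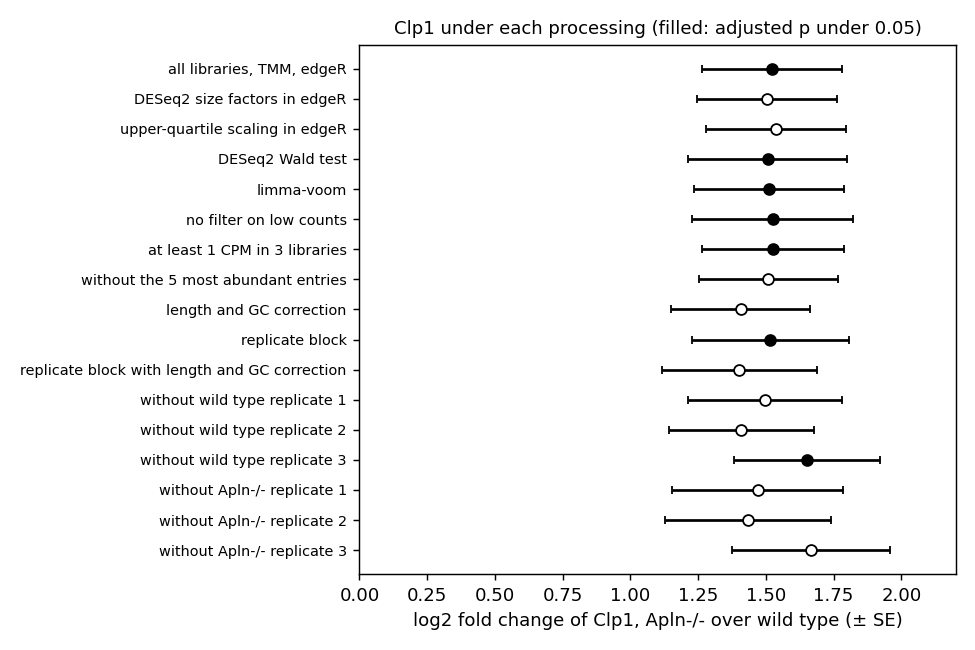
Log2 fold change of Clp1, Apln-/- over wild type (horizontal axis, ± SE), under the 17 processings run, filled where the adjusted p was under 0.05. Every point lies between 1.40 and 1.67, and 10 of the 16 alternatives are open.

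The longest annotated Clp1 transcript has 2564 nucleotides, in the fourth of 8 bins of genes by length, where the median log2 fold change was 0.02. Exons of Clp1 overlapped those of no other annotated gene. Its nearest protein-coding neighbours were at other levels. Ypel4, 6708 bases away, had 1, 0 and 0 counts in Apln-/- libraries 1, 2 and 3, against 5, 2 and 0 counts in wild-type libraries 1, 2 and 3. Zdhhc5, a palmitoyltransferase gene 6924 bases away, was at 25.3 ± 3.21 CPM in Apln-/- cells and 33.7 ± 0.821 CPM in wild-type cells (SD, n = 3 each; log2 fold change -0.41 ± 0.15 SE, adjusted p = 0.231 in edgeR).

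The sequence before the start of Clp1 is shown because Clp1 is the member that was called, and that of Pcf11 because the PCF11 protein is its partner in cleavage factor II. Both come from RefSeq promoter windows (GRCm38.p6, the assembly of mm10), in which 7 of the 9 genes had an entry. They run 5' to 3' on the minus strand and were trimmed to bases upstream of both the RefSeq and the GENCODE start. The Clp1 stretch is chr2:84727351-84727537 and the Pcf11 stretch is chr7:92669935-92670162; capitals mark CCAAT and GGGCGG, read on either strand.
Clp1: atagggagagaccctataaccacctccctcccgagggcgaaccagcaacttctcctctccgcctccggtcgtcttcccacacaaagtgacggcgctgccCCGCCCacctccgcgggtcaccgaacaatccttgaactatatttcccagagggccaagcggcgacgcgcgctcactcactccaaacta
Pcf11: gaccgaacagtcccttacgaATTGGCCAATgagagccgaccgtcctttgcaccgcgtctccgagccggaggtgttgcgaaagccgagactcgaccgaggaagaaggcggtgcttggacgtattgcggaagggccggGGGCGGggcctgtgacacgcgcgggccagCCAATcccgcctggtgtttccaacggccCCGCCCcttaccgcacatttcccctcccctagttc
The Clp1 stretch of 187 bases has a GC content of 61.0% and 16 CpG pairs, and the Pcf11 stretch of 228 bases has 64.9% and 24. GGGCGG, the GC box, had 1 match before Clp1 and 2 before Pcf11, and it occurs in 22.2% and 29.5% of all 32851 promoter windows cut to those lengths. CCAAT had 0 matches before Clp1 and 3 before Pcf11, and it occurs in 26.2% and 31.9% of the windows. The TATA box searched as TATAAA, the ETS core as CCGGAA, the E-box as CACGTG and the cyclic AMP element as TGACGTCA were, on both strands, in neither stretch; they occur in 8.62%, 7.26%, 3.94% and 0.661% of the windows cut to 187 bases. A match is a string of letters, not a binding site.

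Pcf11 (ENSMUSG00000041328, chromosome 7, 92643543 to 92669934, minus strand) encodes the other subunit of cleavage factor II, which binds the tail of RNA polymerase II and also acts in termination. Its level was 49.6, 38.9 and 47.5 CPM in Apln-/- libraries 1, 2 and 3, against 35.4, 43.0 and 40.2 CPM in wild-type libraries 1, 2 and 3. The groups overlapped, with Apln-/- library 2 below wild-type libraries 2 and 3. Its log2 fold change was 0.20 ± 0.15 (SE), with 0.11 without wild-type library 1 and 0.30 without Apln-/- library 2.

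Per kilobase of transcript, Clp1 stood at 0.424, 0.566 and 0.328 times the level of Pcf11 in Apln-/- libraries 1, 2 and 3, against 0.189, 0.135 and 0.196 times in wild-type libraries 1, 2 and 3. The balance between the 2 cleavage factor II transcripts was thus nearer to equal in every Apln-/- library, with Pcf11 the more abundant in all 6. Set against each of the other 7 genes in the same way, Clp1 was relatively higher in all 3 Apln-/- libraries than in any wild-type library. These ratios share the Clp1 values and add no separate measurement of it.

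The 3 members that are subunits of the tRNA splicing endonuclease had smaller fold changes than Clp1. Tsen15 and Tsen54 were the members with the lowest levels per kilobase, while Tsen34 lay above Clp1 in both groups. Tsen15 (ENSMUSG00000014980, chromosome 1, 152370735 to 152386688, minus strand), a structural subunit, had 43, 54 and 51 counts in Apln-/- libraries 1, 2 and 3, against 43, 32 and 55 counts in wild-type libraries 1, 2 and 3. In TMM-scaled CPM its groups did not overlap, with 2.02, 2.49 and 2.41 in Apln-/- libraries 1, 2 and 3, against 1.71, 1.10 and 1.73 in wild-type libraries 1, 2 and 3. The raw counts did overlap, so this separation rests on the scaling. The log2 fold change of Tsen15 was 0.61 ± 0.39 (SE).

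Tsen34 (ENSMUSG00000035585, chromosome 7, 3692863 to 3701024, plus strand), a catalytic subunit, was at 7.97, 6.46 and 6.85 CPM in Apln-/- libraries 1, 2 and 3, against 4.09, 2.89 and 7.03 CPM in wild-type libraries 1, 2 and 3. The Apln-/- libraries lay close together, and wild-type library 3 lay among them. Its log2 fold change was 0.60 ± 0.31 (SE), with 0.34 without wild-type library 2 and 1.03 without wild-type library 3. Exons of the opposite-strand gene Mboat7 overlap 10.9% of the exonic bases of Tsen34, and the strand setting of the counting is not given, so reads there cannot be assigned to either gene.

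Tsen54 (ENSMUSG00000020781, chromosome 11, 115814724 to 115823094, plus strand), the other structural subunit, was at 2.2, 2.12 and 1.84 CPM in Apln-/- libraries 1, 2 and 3, against 1.98, 0.826 and 2.84 CPM in wild-type libraries 1, 2 and 3. The wild-type libraries spanned the whole Apln-/- range. Its coefficient of variation was 9.21% in Apln-/- libraries and 53.6% in wild-type libraries, and that of Tsen34 was 11.1% in Apln-/- libraries and 45.6% in wild-type libraries. The log2 fold change of Tsen54 was 0.13 ± 0.46 (SE), and it turned to -0.24 without wild-type library 2.

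Rtcb (ENSMUSG00000001783, chromosome 10, 85938637 to 85957823, minus strand), the ligase that closes spliced tRNAs, was at 29.5, 26.3 and 24.8 CPM in Apln-/- libraries 1, 2 and 3, against 22.2, 18.1 and 29.0 CPM in wild-type libraries 1, 2 and 3. The groups overlapped through wild-type library 3. This gave Rtcb a log2 fold change of 0.22 ± 0.19 (SE). It was 0.06 without wild-type library 2, 0.42 without wild-type library 3 and 0.10 with the length and GC correction.

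The wild-type libraries did not stand in the same order in all of the 9 genes. Clp1, Tsen15, Tsen34, Tsen54 and Rtcb, the 5 members of tRNA splicing, were each highest in wild-type library 3 and lowest in wild-type library 2. Some places were close: Clp1 had 72 raw counts in both wild-type libraries 1 and 2, and Tsen15 was at 1.73 CPM in library 3 and 1.71 in library 1. The share of all genes in this order was not counted. Pcf11, Cpsf1 and Cpsf3 were each highest in wild-type library 2, and Cstf2 in wild-type library 1. The wild-type libraries also differed in the length trend: relative to the mean of all 6 libraries, the median log2 level of the bin of shortest transcripts was -0.01 in wild-type library 3, -0.14 in library 1 and -0.22 in library 2. The part of this trend in the order of the members was not tested. Transcripts of Tsen34, Tsen54 and Rtcb, at 1779, 1979 and 2009 nucleotides, are the shortest of the 9.

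The 2 CPSF subunit genes were the only ones of the 9 with a negative log2 fold change, and neither passed the test. Cpsf3 (ENSMUSG00000054309, chromosome 12, 21285391 to 21315056, plus strand), the endonuclease that cuts pre-mRNA, was at 23.1, 25.2 and 20.3 CPM in Apln-/- libraries 1, 2 and 3, against 25.4, 32.9 and 27.7 CPM in wild-type libraries 1, 2 and 3. The groups did not overlap, but the margin between Apln-/- library 2 and wild-type library 1 was narrow. This gave Cpsf3 a log2 fold change of -0.33 ± 0.16 (SE), and -0.42 with the length and GC correction.

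Cpsf1 (ENSMUSG00000034022, chromosome 15, 76595803 to 76607591, minus strand), the large scaffold subunit of CPSF, was at 16.9, 18.5 and 21.5 CPM in Apln-/- libraries 1, 2 and 3, against 21.7, 29.8 and 18.3 CPM in wild-type libraries 1, 2 and 3. The groups overlapped, with wild-type library 3 inside the Apln-/- range. Cpsf1 had a log2 fold change of -0.30 ± 0.20 (SE). It was -0.09 without wild-type library 2, -0.44 without wild-type library 3 and -0.16 with the length and GC correction.

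Cstf2 (ENSMUSG00000031256, X chromosome, 134059187 to 134086819, plus strand) encodes the CstF subunit that binds the RNA downstream of the cut. It was at 17.4, 24.9 and 17.9 CPM in Apln-/- libraries 1, 2 and 3, against 22.2, 17.9 and 16.02 CPM in wild-type libraries 1, 2 and 3. The groups overlapped, and Apln-/- library 2 was the highest of all. Cstf2 had a log2 fold change of 0.10 ± 0.20 (SE) and turned to -0.08 without Apln-/- library 2. Cstf2 has an intronless paralog, Cstf2t, at 7.81 ± 1.62 CPM in Apln-/- cells and 5.74 ± 1.24 CPM in wild-type cells (SD, n = 3 each). Reads that fit both genes could make the count of each uncertain, which was not tested.

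Groups that did not overlap in CPM were seen for Clp1 and Tsen15 (higher in Apln-/-) and Cpsf3 (lower), 3 of the 9. Over all genes tested, 20.9% did not overlap, 11.3% with Apln-/- higher and 9.56% with Apln-/- lower. The median log2 fold change of the 9 was 0.20, against -0.01 over all genes. Both the count and the median include Clp1, which was chosen by its call in this comparison, so they support nothing.

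**Figure D3:**
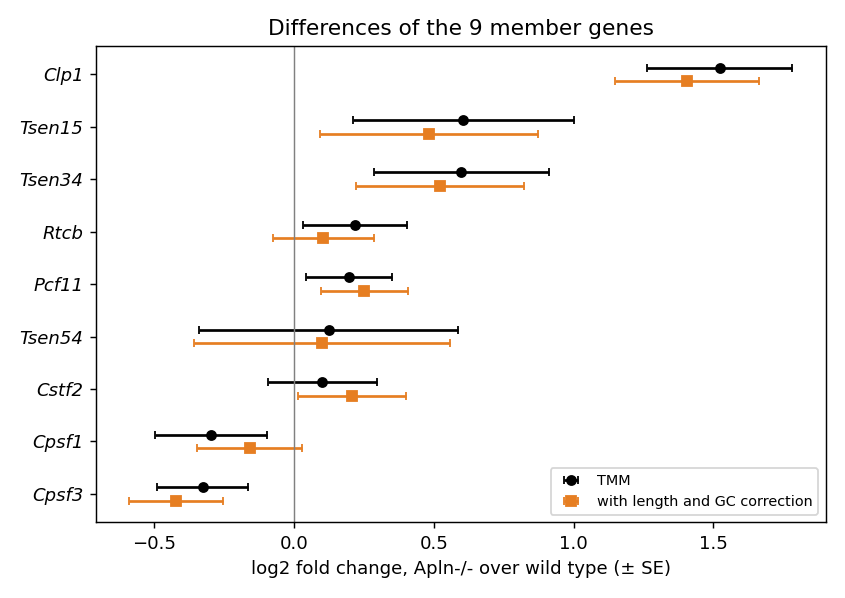
Log2 fold change of each of the 9 genes, Apln-/- over wild type (horizontal axis, ± SE), by edgeR with TMM scaling (circles) and with the correction for transcript length and GC content (squares). Clp1 is at 1.52 and 1.41, and the others lie between -0.42 and 0.61.

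Compared per kilobase of transcript, Rtcb was the most abundant of the 9 in both groups, at 13.4 ± 1.20 CPM per kilobase in Apln-/- cells and 11.5 ± 2.73 in wild-type cells (SD, n = 3 each). Cpsf3, Pcf11, Cpsf1 and Tsen34 followed in that order in both groups. Clp1 took place 6 in Apln-/- cells, at 3.26 ± 0.579 CPM per kilobase, and place 7 in wild-type cells, at 1.13 ± 0.175, where it changed places with Cstf2. Cstf2 was at 2.67 ± 0.555 CPM per kilobase in Apln-/- cells and 2.49 ± 0.420 in wild-type cells. The lowest were Tsen54, at 1.04 ± 0.0957 in Apln-/- cells and 0.951 ± 0.510 in wild-type cells, and Tsen15, at 0.954 ± 0.105 in Apln-/- cells and 0.626 ± 0.148 in wild-type cells. In Apln-/- cells the gaps below Rtcb, Pcf11 and Cstf2 were larger than the summed SDs of the neighbours, and the other neighbours in the order did not differ beyond their spread. In wild-type cells this held for the gaps below Cpsf3, Cpsf1 and Cstf2, and Clp1 did not differ from Tsen54 beyond their spread. With the total exon length of each gene in place of the longest transcript, Clp1 moved to place 5 in Apln-/- cells and kept place 7 in wild-type cells, and Pcf11 moved above Cpsf3 in Apln-/- cells.

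**Figure D4:**
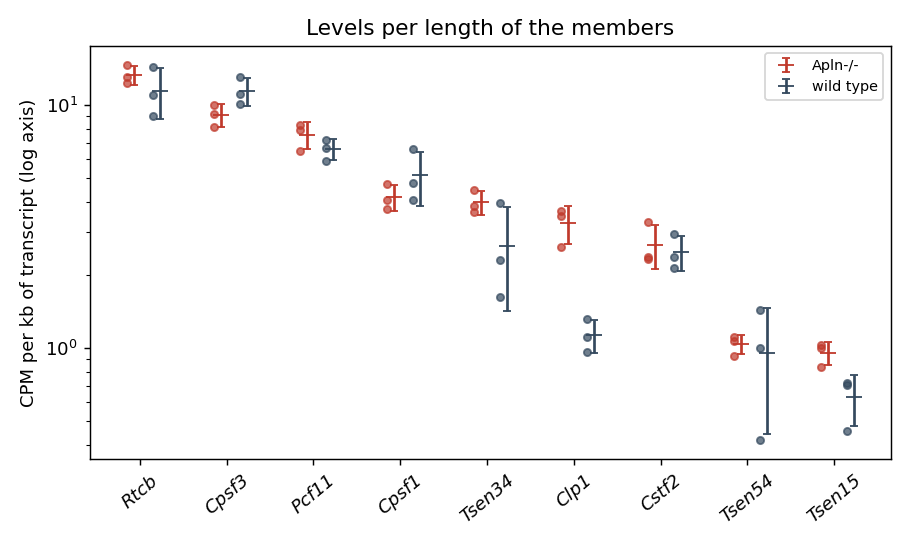
Levels of the 9 genes in CPM per kilobase of the longest transcript (vertical log axis), ordered by the Apln-/- mean, with points for libraries and bars for mean ± SD. Clp1 lies at 2.6 to 3.67 in Apln-/- libraries and at 0.967 to 1.32 in wild-type libraries, while Rtcb leads in both groups.

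The rest of both pathways was read from 8 lists with 97 genes, none of them members, all present in the table and all past the filter. In the edgeR test adjusted over all genes, 0 of the 97 were called higher and 0 lower, where 0.172% of all genes were called. At an unadjusted p under 0.05, 7 were higher and 9 lower, 16 of 97, where all genes gave 15.2%, 7.53% higher and 7.66% lower. The DESeq2 Wald test called 3, all lower (Ern2, Gtf3c2 and Rbbp6), and limma-voom called 0. The median log2 fold change of the 97 was -0.09, against -0.01 over all genes. Clp1, at 1.52, lay above the highest of the 97, which was at 1.03. Clp1 was chosen as a gene called higher and the 97 were not, so its place above them is a description and supports nothing.

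Of the 16 further genes of cleavage and polyadenylation, 6 had a positive and 10 a negative log2 fold change, with a median of -0.12. Rbbp6, which encodes a large protein needed for cleavage, was at 51.0 ± 1.89 CPM in Apln-/- cells and 72.6 ± 7.09 CPM in wild-type cells (SD, n = 3 each; edgeR adjusted p = 0.131). Ssu72, a phosphatase of the polymerase tail, was at 23.4 ± 1.94 CPM in Apln-/- cells and 17.1 ± 1.90 CPM in wild-type cells (edgeR adjusted p = 0.226). The scaffold gene Sympk was at 14.6 ± 0.317 CPM in Apln-/- cells and 18.1 ± 2.41 CPM in wild-type cells (edgeR adjusted p = 0.423). The 9 genes of termination and of proteins with a PCF11-like polymerase-binding domain, with the kinases Cdk12 and Cdk13, had a median of -0.29, and Xrn2, the exonuclease that ends transcription, was the single one above 0 (log2 fold change 0.18). Cdk13 (-0.33), Rprd2 (-0.32) and Cdk12 (-0.28) (log2 fold changes) had the lowest p of this list, and 0 passed. Their transcripts are long, with a list median of 4866 nucleotides, in a bin of transcript length whose median log2 fold change was -0.11; the part of length in the median of the list was not tested.

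Among 9 other genes of tRNA splicing and ligation, log2 fold changes ran from -0.51 to 0.28 with a median of -0.12. Angel2, whose product removes cyclic phosphates from RNA ends, had the lowest p, at 13.2 ± 1.54 CPM in Apln-/- cells and 18.2 ± 4.66 CPM in wild-type cells (SD, n = 3 each; edgeR adjusted p = 0.327). Cnp, a cyclic nucleotide phosphodiesterase gene, was at 12.3 ± 0.528 CPM in Apln-/- cells and 15.6 ± 0.515 CPM in wild-type cells (edgeR adjusted p = 0.367). Rtraf, a subunit of the ligase complex, was at 19.0 ± 2.53 CPM in Apln-/- cells and 15.6 ± 3.52 CPM in wild-type cells (edgeR adjusted p = 0.563).

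The ligase RTCB also joins Xbp1 mRNA after it is cut by the stress sensors of the endoplasmic reticulum, IRE1 alpha (Ern1) and IRE1 beta (Ern2, made in mucus-secreting epithelia). All 3 genes had a negative log2 fold change. Ern2 had 200, 179 and 218 counts in Apln-/- libraries 1, 2 and 3, against 698, 399 and 733 counts in wild-type libraries 1, 2 and 3. The groups did not overlap at 9.31 ± 1.02 CPM in Apln-/- cells and 21.5 ± 7.11 CPM in wild-type cells (SD, n = 3 each), and the log2 fold change of -1.21 ± 0.24 (SE) had an adjusted p of 0.0575 in edgeR. Ern1 (-0.63, edgeR adjusted p = 0.268) and Xbp1 (-0.38, edgeR adjusted p = 0.401) did not pass either. The summed level of 5 goblet cell markers, genes of the mucus-secreting cells, was 1899 to 2020 CPM in Apln-/- libraries and 1440 to 4370 CPM in wild-type libraries; its part in the values of Ern2 was not tested, and fewer cells of a type cannot be told apart from less RNA per cell in such bulk samples.

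The 18 genes that trim the ends of precursor tRNAs had a median log2 fold change of 0.25, with 11 above 0. The CCA-adding enzyme gene Trnt1 was at 17.0 ± 1.31 CPM in Apln-/- cells and 12.1 ± 0.250 CPM in wild-type cells (SD, n = 3 each; edgeR adjusted p = 0.206). Hsd17b10, a subunit of mitochondrial ribonuclease P, and Pop5, a subunit of nuclear ribonuclease P, had log2 fold changes of 0.35 and 0.59 (edgeR adjusted p = 0.303 and 0.326). This list has short transcripts, with a median of 2100.5 nucleotides, and the part of length in its median was not tested. The 22 genes of RNA polymerase III, which makes tRNAs, had a median of 0.03. Gtf3c2, a subunit of transcription factor IIIC, was at 10.3 ± 1.02 CPM in Apln-/- cells and 21.6 ± 8.31 CPM in wild-type cells (edgeR adjusted p = 0.0879). The subunit gene Polr3f was at 5.22 ± 0.178 CPM in Apln-/- cells and 2.79 ± 0.651 CPM in wild-type cells (edgeR adjusted p = 0.170). Gtf3a, whose product acts on the genes of the small ribosomal RNA made by this polymerase, was at 11.95 ± 0.873 CPM in Apln-/- cells and 7.94 ± 0.633 CPM in wild-type cells (edgeR adjusted p = 0.177).

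The 14 Integrator genes, whose complex holds a relative of the CPSF nuclease, had a median log2 fold change of -0.05, and Ints4 (-0.51), Ints6 (0.39) and Ints7 (-0.47) had the lowest p without passing. The 6 genes of histone mRNA 3' ends had a median of -0.19; Zfp473 (-0.61), Slbp (-0.23) and Lsm10 (0.42) had the lowest p, the smallest of them 0.200 unadjusted in edgeR's test.

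**Figure D5:**
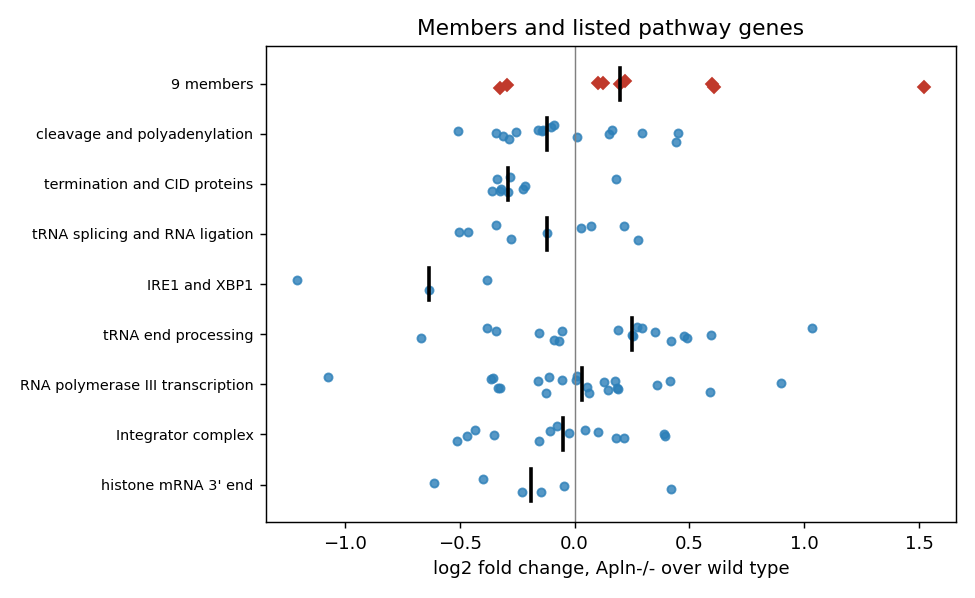
Log2 fold change, Apln-/- over wild type (horizontal axis), of the 9 members (diamonds) and of the genes of 8 pathway lists (dots), with a vertical bar at each median; vertical scatter within a row has no meaning. Clp1 is the rightmost diamond at 1.52, Ern2 (-1.21) and Gtf3c2 (-1.07) are the leftmost dots, and no listed gene passed the test.

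The 5 genes whose log2 CPM followed that of Clp1 most closely over the 6 libraries were Ndufc2, Khk, Acp1, Atp6ap2 and Cct4, with Pearson's r of 0.993 to 0.999. They encode a complex I subunit, ketohexokinase, a low-weight phosphatase, an accessory protein of the vacuolar proton pump and a subunit of the cytosolic chaperonin. This r is a description of 6 points in 2 groups that are apart for Clp1, and 404 of 10668 genes compared had an r over 0.9. Cct4 was at 67.3 ± 7.06 CPM in Apln-/- cells and 35.4 ± 3.97 CPM in wild-type cells, and Khk at 7.40 ± 0.966 CPM in Apln-/- cells and 3.62 ± 0.453 CPM in wild-type cells (SD, n = 3 each). Their edgeR adjusted p was 0.0460 and 0.0948, and the other 3 had 0.101 to 0.401.

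Summed levels of the markers of 4 crypt cell types did not overlap between the genotypes. Those of stem cells, goblet cells, enterocytes and the crypt epithelium as a whole overlapped. The sum of 5 stem cell markers was 776 to 1531 CPM in Apln-/- libraries and 715 to 1098 CPM in wild-type libraries. Of single genes, 20.9% of all those tested did not overlap. The summed level of 5 Paneth cell markers was 974 to 2284 CPM in Apln-/- libraries and 557 to 876 CPM in wild-type libraries. That of 5 tuft cell markers was 28.5 to 62.3 CPM in Apln-/- libraries and 79.0 to 105 CPM in wild-type libraries. That of 5 enteroendocrine markers was 375 to 506 CPM in Apln-/- libraries and 655 to 911 CPM in wild-type libraries, and that of 5 genes of dividing cells 413 to 474 CPM in Apln-/- libraries and 524 to 623 CPM in wild-type libraries. The last of these separations rested on Mki67, at 201 ± 32.9 CPM in Apln-/- cells and 355 ± 46.0 CPM in wild-type cells (SD, n = 3 each), while the other 4 genes of dividing cells had log2 fold changes of 0.06 to 0.21. By edgeR's test with adjustment over all genes 0 of the 20 markers of the 4 types that did not overlap passed, where 0.172% of all genes did. At an unadjusted p under 0.05 in edgeR there were 13 of the 20, where all genes gave 15.2%. The 4 lists were picked because their sums did not overlap, so this count is a description and supports nothing. Cells excluded by the sort gave little: 6 immune genes summed to 2.03 to 3.66 CPM in Apln-/- libraries and 2.40 to 7.30 CPM in wild-type libraries, and 4 endothelial genes to 0.0923 to 0.938 CPM in Apln-/- libraries and 0.284 to 1.43 CPM in wild-type libraries. The 5 stromal genes summed to 7.78 to 16.4 CPM in Apln-/- libraries and 1.07 to 29.3 CPM in wild-type libraries. The part of these markers in the level of Clp1 was not tested.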

How the data were processed

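RNA of sorted crypt epithelial cells from 3 Apln-/- and 3 wild-type samples underwent whole-transcriptome amplification (Ovation Pico WTA System V2) and was made into Nextera DNA Flex libraries, per the labels' protocols. The authors deposited raw read counts per gene; per the submitters' processing notes STAR 2.6.1, HTSeq and mm10 were used, and the annotation release and strand setting are not given there. Symbols, positions, lengths and GC contents came from GENCODE M21, of the same build, which gave a symbol to 28551 identifiers and none to 13; Prorp was found through its RefSeq synonym. Libraries carry the replicate numbers of the sample titles; Apln-/- libraries 1, 2 and 3 are the deposited columns KO1, KO3 and KO4. The table had 0 columns without a sample and 0 rows without a gene.

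Counts were compared in R 4.3.3 with edgeR 4.0.16: filterByExpr (count minimum 10, total minimum 15), TMM scaling, and the quasi-likelihood test with no covariate and Benjamini-Hochberg adjustment over the 15122 genes kept, threshold 0.05. CPM are TMM-scaled, and log2 CPM have a prior count of 2. A gene at 0 counts is compatible with at most 3 counts (0.0946 to 0.142 CPM, depending on the library), for counting error only, since the reads carry no molecular identifiers; deeper libraries are the more precise. Pairs of libraries of a group differed beyond sampling noise (chi-square per degree of freedom 7.50 to 29.9). P-values set the difference between the groups against the spread between these samples. In edgeR the spread of each gene was moderated by that of the other genes. The test was tried on simulated counts. Alternatives were other scalings, DESeq2 1.42.0, limma-voom (limma 3.58.1), other filters, dropping the 5 top entries, a correction of each library for length and GC content (mgcv), the replicate number as a block and leaving out each library.

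The members and lists were chosen with earlier results of these data known. Named are the 9 genes, Apln, the 3 genes of lowest p in each pathway list, and the 5 genes of at least 1 CPM and with a regular symbol whose log2 CPM had the highest Pearson's r with Clp1; Cstf2t, Xrn2 and the neighbours of Clp1 were added after values were seen, as were the motifs searched.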

Additional observations from a re-analysis of the deposited data

How the results depend on the processing

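The count of 26 genes changed and the call of Clp1 depended on the setting, and the cause was not tested. The number of genes changed was 1 with DESeq2 size factors, upper-quartile scaling, without the 5 most abundant entries or with the length and GC correction, 581 with the DESeq2 Wald test, 56 with limma-voom, 629 with no filter and 117 with at least 1 CPM in 3 libraries. Leaving out 1 library gave 0 to 358, the highest without wild-type library 3. Scalings moved the median log2 fold change of all genes to between -0.02 and 0.01. Of the 97 listed pathway genes, called 0 times at first, 3 were called by the DESeq2 Wald test, 2 with no filter, 1 with the CPM filter and 0 to 1 with a library left out (Gtf3c2 without wild-type library 3).

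Clp1 missed the threshold of the adjusted p, at log2 fold changes of 1.51 with DESeq2 size factors, 1.54 with upper-quartile scaling, 1.51 without the 5 top entries and 1.41 with the length and GC correction, and, but for wild-type library 3, with any library left out (1.41 to 1.67 over all 6). Its sign was positive in all 16 alternatives. Of the other members 6 kept their sign in all 16; with a library left out Tsen54 ran from -0.24 (without wild-type library 2) to 0.56 (without wild-type library 3) and Cstf2 from -0.078 (without Apln-/- library 2) to 0.23 (without wild-type library 1). Of the 6, those that moved by over 1.5 times with a library left out were Tsen34 (0.34 to 1.03), Rtcb (0.06 to 0.42), Cpsf1 (-0.44 to -0.09) and Pcf11 (0.11 to 0.30). None of these 8 passed in any alternative, but the DESeq2 Wald test gave Tsen15 and Tsen54 no adjusted p.

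With the replicate number as a block 173 genes were called, 1 of them a listed pathway gene (Ern2), and 11 genes when the block was joined to the length and GC correction; Clp1 was then at 1.52 and 1.40 (adjusted p = 0.0307 and 0.0698, edgeR). Samples share only a number: their deviations from the group means correlated at 0.04, 0.06 and 0.01 for numbers 1, 2 and 3, and Apln-/- library 3 correlated best with wild-type library 1. Column names number Apln-/- libraries 2 and 3 otherwise (KO3, KO4); by them KO3 would go with wild-type library 3, and their deviations correlated at -0.01. Levels per kilobase were higher for all 9 genes where the counts outside the 5 top entries stood for the library total. This follows from the smaller total and is not a result about the genes. Low counts, 39 to 54 per Apln-/- library and 24 to 90 per wild-type library for Tsen15 and Tsen54, limit what could be seen for these genes.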
